A study of Homo sapiens with 6 samples.

Results

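The secreted and transmembrane mucins were followed in the established human cell line RKO, derived from a colon carcinoma. Of the 10 mucin genes considered (MUC1, MUC2, MUC4, MUC5AC, MUC5B, MUC6, MUC7, MUC13, MUC15 and MUC16), 9 had a probe set, and MUC5AC was not analysed here. The 9 genes were represented by 11 probe sets, chosen by the RefSeq accession in their identifiers, out of 1259 probe sets and 927 named genes in all. RKO C2 F3 (F3 for short) was sorted by flow cytometry for low u-PAR, the urokinase receptor, out of RKO C2 (C2 for short), which is its clonal parent. The study looked for a missing glycosylation step behind poor maturation of u-PAR, and the labels name no drug treatment for either population. F3 and C2 had 3 arrays each, with the same replicate numbers 1 to 3, both descend from a single clone, and F3 is called clonal in the sample titles but only a population in the series' design text. Separate cultures are not stated for the replicates, so the p-values cover only the variation among these arrays, part or all of which may be technical.

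Mucins are large glycoproteins whose repeats, rich in serine, threonine and proline, carry dense O-linked glycans that start with N-acetylgalactosamine (GalNAc). The gel-forming mucins MUC2, MUC5AC, MUC5B and MUC6 are secreted and join through disulfide bonds into the mucus gel, while MUC7 is a small secreted mucin of saliva that does not form a gel. MUC1, MUC4, MUC13, MUC15 and MUC16 are anchored in the plasma membrane and form part of the glycan coat of epithelial cells. In the colon, goblet cells secrete MUC2 as the main component of mucus.

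No mucin passed the test for a difference between F3 and C2. Of the 11 probe sets, 0 passed an adjusted p of 0.05 in limma (F3 minus C2), against 0.0794% of all probe sets. This fit did not pair arrays by replicate number. With the replicate number as a block 0 of the 11 passed either, and 2 of all probe sets did. Limma fits a linear model to each probe set and draws its error estimate toward a value shared over all probe sets. The change nearest to the threshold belonged to MUC5B, which was 1.10-fold higher in F3, and it was the 1 mucin probe set with an unadjusted limma p under 0.05, against 5.4% of all probe sets. The 11 log2 changes lay between -0.068 and 0.14. Their 95% intervals, each for its own probe set, reached from 1.14-fold lower to 1.20-fold higher in F3. Values are log2 expression from RMA (robust multi-array averaging), which shrinks changes of dim probe sets, so these bounds apply to the deposited scale.

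On the 6 arrays median log2 expression lay between 5.48 and 5.51, and correlations across probe sets lay between 0.9981 and 0.9992. RMA equalises the arrays' distributions, so close medians follow largely from the processing. The correlations run over log2 values from 2.08 to 14.1, so they say little about small differences between arrays. Precision is limited by the number of arrays, with a median within-group SD of 0.083 over all probe sets and 0.051 over the mucins. The 1 probe set of the whole table that passed was PIGB, a mannosyltransferase of GPI anchor synthesis, with a log2 change of -0.87 (limma adjusted p = 0.013). Without C2 replicate 2, C2 replicate 3 or F3 replicate 1 its adjusted p was 0.057, 0.15 and 0.097, and no probe set passed, while 2 passed without F3 replicate 2. Of 8 markers of colon epithelium only LGALS4, encoding an intestinal galectin, was measured, at a log2 level of 4.68 ± 0.14 in F3 and 4.74 ± 0.07 in C2 (SD, n = 3 each), and none of the 10 goblet cell markers was. The labelled tissue could therefore not be checked from defining markers.

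The signals of gel-forming and membrane mucins overlapped in both populations. Mean log2 expression of the 3 gel-forming mucins ran from 5.15 to 6.14 in F3 and from 5.12 to 6.10 in C2. That of the 7 membrane mucin probe sets ran from 3.14 to 7.11 in F3 and from 3.16 to 7.11 in C2, so that the gel-forming values lay inside the range of the membrane ones. In falling order of signal came the 3 MUC1 probe sets, MUC6, MUC5B, MUC2, MUC4, MUC16, MUC13, MUC15 and MUC7. In that order only the 2 brightest MUC1 probe sets overlapped over the 3 arrays of a population, in F3 and in C2, and every other probe set lay below its neighbour on all arrays of the same population. The brightness of a probe set also depends on how well its probes bind, so this is an order of signals and not of mRNA amounts.

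None of the 11 probe sets reached the upper quartile of the table, a log2 mean of 7.77. Between that and the table's median of 5.50 lay 5 of them, another 4 lay between the median and the lower quartile of 3.80, and 2, MUC15 and MUC7, lay below it. For scale, 12 measured leukocyte markers had means over the 6 arrays between 2.49 and 5.78, and 9 fibroblast and endothelial markers between 2.30 and 7.05. These markers are taken at the brightest probe set of each gene, while all 11 mucin probe sets are counted. The table holds no detection call, so no mucin could be called present or absent.

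**Figure D1:**
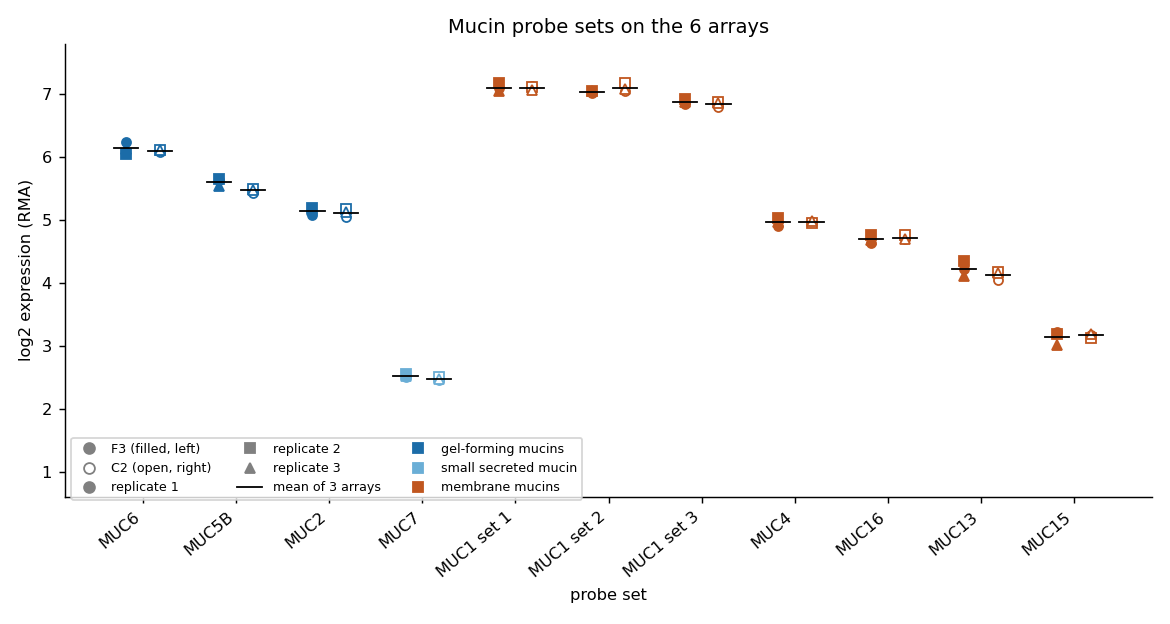
Log2 RMA expression of the 11 mucin probe sets (y axis) on the 3 F3 arrays (filled, left of each pair) and the 3 C2 arrays (open, right). Shapes mark the replicate number, black lines the mean of 3 arrays and colours the kind of mucin. For MUC5B and MUC7 all F3 points lie above all C2 points, and for MUC1 set 2 all lie below.

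Among the gel-forming mucins, MUC5B, a mucin of airways and salivary glands, had log2 values of 5.64, 5.66 and 5.54 in F3, against 5.44, 5.50 and 5.48 in C2. All 3 F3 arrays lay above all C2 arrays. The means were 5.61 ± 0.06 in F3 and 5.47 ± 0.03 in C2 (SD, n = 3 each), a log2 change of 0.14 (95% interval 0.01 to 0.26) with a limma p of 0.035 and a limma adjusted p of 0.84. By p this probe set ranked 52 of 1259, so that 51 probe sets of the table had a smaller p.

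MUC2, the gel-former of colonic mucus, had log2 values of 5.08, 5.20 and 5.16 in F3, against 5.05, 5.17 and 5.13 in C2. The populations overlapped, array 1 was the lowest and array 2 the highest in both, and the same-numbered differences were 0.024, 0.026 and 0.032. The fitted log2 change was 0.027 (95% interval -0.11 to 0.16, limma adjusted p = 0.998). MUC6, a mucin of gastric glands, had log2 values of 6.25, 6.05 and 6.12 in F3, against 6.08, 6.11 and 6.11 in C2. F3 replicate 1 was the highest and F3 replicate 2 the lowest of the 6 arrays, with all of C2 between them. Its log2 change was 0.041 (95% interval -0.10 to 0.18, limma adjusted p = 0.998), and without F3 replicate 1 it was -0.012. The plot of values by array shows this spread of MUC6 in F3 (SD 0.10) beside that in C2 (SD 0.01).

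On chromosome 11 the RefSeq table of GRCh38 lists the gel-forming genes close together in the order MUC6, MUC2, MUC5AC and MUC5B, with 1 other protein-coding gene between MUC6 and MUC2. The measured members of this cluster had log2 changes of 0.041, 0.027 and 0.14 in that order, and none passed.

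MUC7, the small salivary mucin, was the dimmest, with log2 values of 2.51, 2.55 and 2.51 in F3, against 2.46, 2.50 and 2.48 in C2. All F3 arrays lay above all C2 arrays, with 2.51 as the lowest F3 and 2.50 as the highest C2 value. The same-numbered differences were 0.042, 0.043 and 0.039, and the log2 change was 0.041 (95% interval -0.07 to 0.15, limma adjusted p = 0.998).

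Among the membrane mucins, MUC1, found on the apical face of most simple epithelia and with a cytoplasmic tail that takes part in signalling, had the brightest signals and 3 probe sets. Those named set 1 and set 3 in the plots end in _x_at, which in the usual Affymetrix naming marks probes that may also bind other transcripts. MUC1 set 2 ends in _a_at, which marks transcripts of a single gene. The probe sets of MUC6 and MUC4 end in _s_at, which in that naming marks probes shared by several transcripts. Their signals may therefore not come from a single gene. The same suffix is found in the related lists, among others for LGALS3, GALNT6, GALNT15 and the brighter probe set of ST6GALNAC4. MUC1 set 1 had log2 values of 7.10, 7.17 and 7.05 in F3, against 7.13, 7.12 and 7.06 in C2, which overlap. MUC1 set 2 had log2 values of 7.02, 7.05 and 7.05 in F3, against 7.05, 7.19 and 7.08 in C2, with all F3 arrays just below all C2 arrays. MUC1 set 3 had log2 values of 6.84, 6.93 and 6.88 in F3, against 6.80, 6.87 and 6.87 in C2, which overlap again. The probe sets of this gene did not share a direction. Their log2 changes were 0.0037 (95% interval -0.12 to 0.13) for set 1, -0.068 (-0.19 to 0.06) for set 2 and 0.035 (-0.09 to 0.16) for set 3, with the smallest limma adjusted p at 0.97. The difference of set 2 was led by number 2, at -0.14, with -0.032 and -0.037 for numbers 1 and 3.

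MUC13, a membrane mucin of the intestine, had log2 values of 4.22, 4.34 and 4.11 in F3, against 4.05, 4.18 and 4.15 in C2. F3 replicates 1 and 2 lay above all C2 arrays, and F3 replicate 3 lay within the C2 range. The log2 change was 0.10 (95% interval -0.06 to 0.26, limma adjusted p = 0.97), and it was 0.16 without F3 replicate 3 and 0.042 without F3 replicate 2. MUC15, a membrane mucin named in cattle as a glycoprotein of the milk fat globule, had log2 values of 3.23, 3.18 and 3.01 in F3, against 3.17, 3.13 and 3.19 in C2. F3 replicate 3 was again low, and here it was the lowest of the 6 arrays. The log2 change of MUC15 was -0.025 (95% interval -0.18 to 0.13, limma adjusted p = 0.998), and without F3 replicate 3 it was 0.040.

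MUC4, a partner of the receptor ERBB2 at the cell surface, had log2 values of 4.91, 5.03 and 4.97 in F3, against 4.96, 4.95 and 4.99 in C2. F3 replicates 1 and 2 were the lowest and the highest of all 6 arrays. MUC16, the mucin that carries an ovarian tumour antigen and binds mesothelin, had log2 values of 4.63, 4.77 and 4.69 in F3, against 4.69, 4.77 and 4.70 in C2, again with overlap. The log2 changes were 0.0044 (95% interval -0.12 to 0.13) for MUC4 and -0.022 (-0.15 to 0.11) for MUC16, with a limma adjusted p of 0.998 each, and that of MUC4 was -0.036 after repeated quantile normalization.

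**Figure D2:**
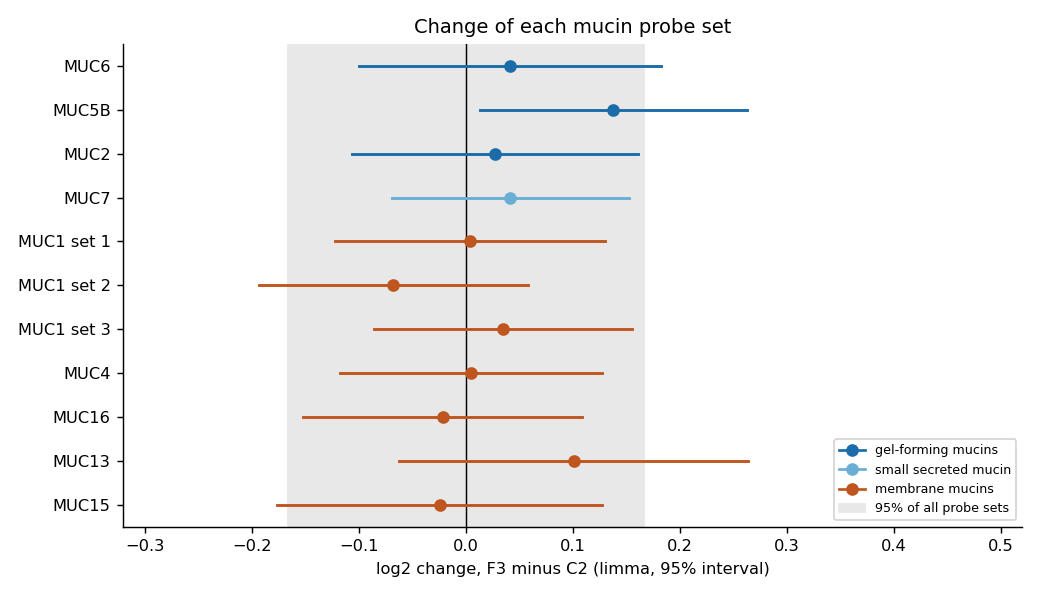
Log2 change (F3 minus C2, x axis) of each mucin probe set from limma with its 95% interval. The grey band holds the changes of 95% of all probe sets, within 0.17 of 0 on the log2 scale. All 11 mucin points lie inside the band, and only the interval of MUC5B leaves out 0.

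As groups, the 4 secreted mucin probe sets (3 gel-forming and MUC7) had a median log2 change of 0.041, and all 4 were positive. The 7 membrane mucin probe sets had a median of 0.0037 (-0.013 after repeated quantile normalization), with 4 positive and 3 negative. Over all 1259 probe sets the median was -0.0064, and 45.4% of the changes were positive. Whether secreted and membrane mucins differed in their change was not tested, and no member of either group passed the test by itself.

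All F3 arrays lay above all C2 arrays for 2 of the 11 probe sets (MUC5B and MUC7), against 3.81% of all probe sets. They lay below for 1, MUC1 set 2, against 6.51%. Set by number, 4 mucin probe sets (MUC5B, MUC2, MUC7 and MUC1 set 3) were higher in F3 in all 3 same-numbered pairs, against 12.1% of all probe sets, and 1, MUC1 set 2, was lower in all 3, against 17.8%. With differences of this size and 3 of the 11 probe sets from 1 gene, these counts describe the members and were not tested.

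**Figure D3:**
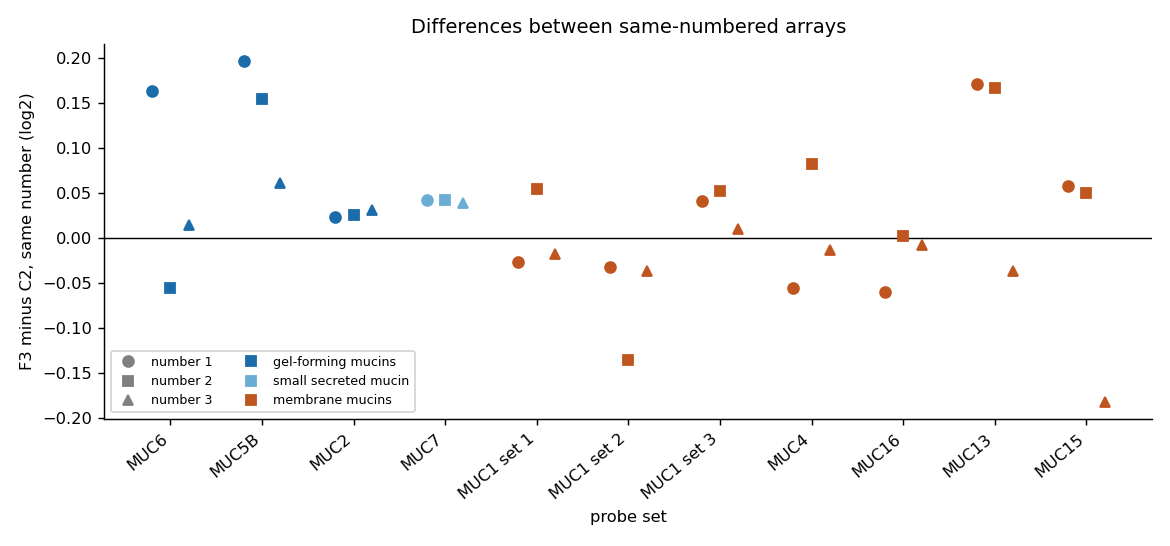
Difference F3 minus C2 between arrays of the same number (y axis, log2) for each mucin probe set, with shapes for the numbers 1 to 3. The points of MUC2 and MUC7 lie close together just above 0, while those of MUC13 and MUC15 lie above 0 for numbers 1 and 2 and below it for number 3.

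Other mucins and mucin-like glycoproteins gave no call either. For this and the lists that follow, the share called over all probe sets was 0.0794%. Of 21 genes on that list 9 were measured, among them MUC17 and MUC20, and 0 rose, 0 fell and 9 did not pass, with a median log2 change of 0.037 against -0.0064 over all probe sets. The smallest p belonged to OVGP1, the oviductal mucin-like glycoprotein, with a log2 level of 5.17 ± 0.13 in F3 and 5.26 ± 0.07 in C2 (SD, n = 3 each) and a log2 change of -0.096 (limma adjusted p = 0.97; -0.024 without F3 replicate 1). MUC20, whose gene lies beside MUC4 on chromosome 3, was at -0.070 (-0.013 without C2 replicate 1 and -0.16 without C2 replicate 3), and MADCAM1, a mucin-like ligand for lymphocyte homing, at 0.038.

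The GalNAc-transferases, which place the first sugar of a mucin O-glycan, had 18 of 20 genes measured. None rose or fell past the threshold, and 1 had an unadjusted limma p under 0.05, against 5.4% of all probe sets. The median log2 change was -0.031, with 13 changes negative, against 54.6% of all probe sets. GALNT15 had a dim signal of 2.97 ± 0.04 in F3 and 3.12 ± 0.04 in C2 (SD, n = 3 each), with a log2 change of -0.15 (limma adjusted p = 0.84). GALNT7, which prefers peptides that already carry GalNAc, was at -0.13, and GALNT6 at -0.21, with levels of 9.14 ± 0.09 in F3 and 9.35 ± 0.25 in C2 (SD, n = 3 each), and the change was -0.079 without C2 replicate 2 and -0.33 without C2 replicate 3.

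Of 8 genes listed with the O-glycan core enzymes, among them branching and extending enzymes and a chaperone, 7 were measured and 0 passed. Their median log2 change was -0.025. GCNT3, the branching enzyme of mucin-secreting tissues, was at 4.10 ± 0.07 in F3 and 4.24 ± 0.06 in C2 (SD, n = 3 each), a log2 change of -0.14 (limma adjusted p = 0.87), and it was the 1 core enzyme with an unadjusted limma p under 0.05, against 5.4% of all probe sets. C1GALT1C1, the chaperone of the core 1 galactosyltransferase, was at 0.052, and GCNT1, another branching enzyme, at 0.042.

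All 21 genes listed for capping and sulfation of mucin O-glycans were measured and 0 passed. Their changes were 10 positive and 11 negative, against 45.4% and 54.6% of all probe sets, with a median of -0.015. ST6GALNAC4, a sialyltransferase acting on GalNAc of O-glycans, was at 0.23 (limma adjusted p = 0.97; 0.045 without C2 replicate 2 and 0.37 without C2 replicate 1), while its other probe set was at 0.021. ST3GAL1, which sialylates core 1, was at -0.12 (-0.041 without C2 replicate 2), and ST6GALNAC1, the sialyl-Tn synthase, at -0.072 with a dim signal.

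Of 14 binding partners and shedding enzymes of membrane mucins 7 were measured, none of them a shedding enzyme, and none passed over all probe sets. Of these 7 partners, 2 had an unadjusted limma p under 0.05, against 5.4% of all probe sets, and the median log2 change was -0.022. LGALS3, encoding galectin-3, a lectin that binds glycans of MUC1, came nearest, at 7.55 ± 0.06 in F3 and 7.95 ± 0.08 in C2 (SD, n = 3 each), with a log2 change of -0.40 (limma adjusted p = 0.095). ICAM1, an adhesion receptor that binds MUC1, was at 7.24 ± 0.03 in F3 and 7.50 ± 0.21 in C2, with a log2 change of -0.26 (limma adjusted p = 0.84; -0.14 without C2 replicate 2). These 2 partners had all F3 arrays below all C2 arrays, against 6.51% of all probe sets, and ERBB4, a receptor of the ERBB family, was at -0.024. On the same arrays MUC1 had log2 changes of 0.0037 for set 1, -0.068 for set 2 and 0.035 for set 3. Whether MUC1 changed together with these partners was not tested.

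**Figure D4:**
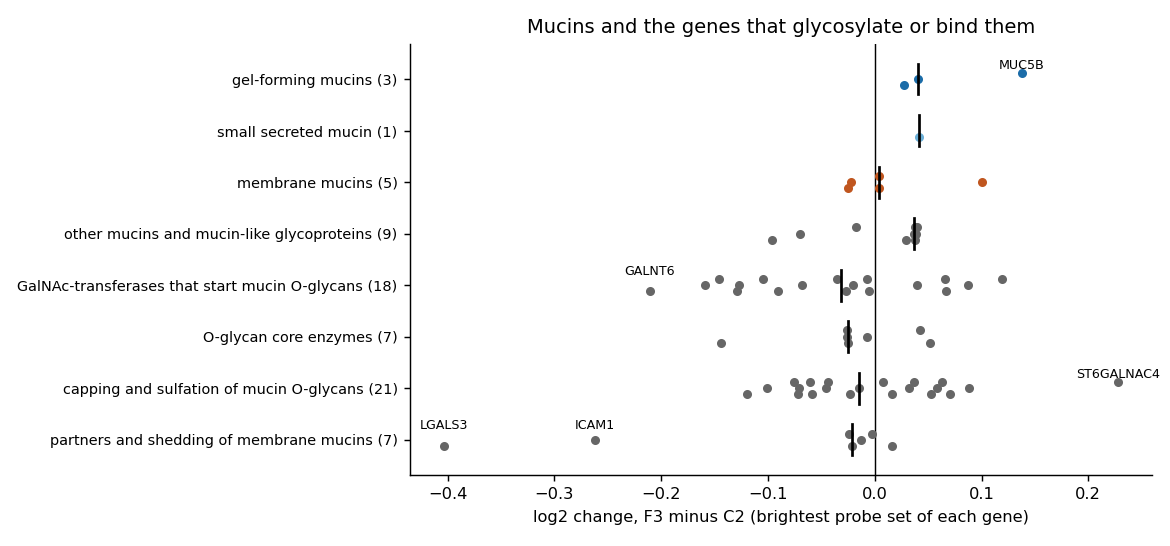
Log2 change (F3 minus C2, x axis) of the brightest probe set of each gene in the mucin groups and in related gene lists, with the number of genes measured in brackets and a black line at each median. The mucins lie between -0.025 and 0.14, and the most negative point is LGALS3 at -0.40.

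Markers of other cell types gave no call. Of 12 leukocyte markers 0 passed and 3 had an unadjusted limma p under 0.05, against 5.4% of all probe sets. These were CD72 at 0.23, KLRC1 at -0.21 with a dim signal (mean log2 level 2.49 over the 6 arrays) and SIGLEC5 at 0.17. The summed log2 level of the 12 markers was 46.4 to 47.5 in F3 and 46.6 to 47.1 in C2. Of 9 fibroblast and endothelial markers 0 passed and 1 had an unadjusted limma p under 0.05, with ICAM2 at -0.20, BGN at 0.12 and PDGFRB at -0.091. Their summed log2 level was 34.9 to 35.4 in F3 and 35.2 to 35.6 in C2.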

How the data were processed

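RNA was isolated with Trizol and turned into biotinylated cRNA by Affymetrix's method, per the labels' protocols. The deposited table gives log2 expression, 1 value per probe set and array, and RMA is the tool named per the submitters' processing notes; no version and no probe set definitions were given in the sources used here. RMA equalises the arrays' distributions, so a shift of most genes one way would be lost. Of 1259 probe sets, 1043 matched 1 symbol in the RefSeq table of GRCh38 by accession without its version, and the other 216 stayed in the tests unnamed. Coordinates are left out, since the probes' genome build was not given.

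The populations were compared with limma 3.58.1 under R 4.3.3 (lmFit, eBayes, two-sided tests, Benjamini-Hochberg over the whole table, threshold 0.05, 95% intervals). The script was tested on simulated data with independent noise and added changes larger than those of the mucins. That test does not cover changes as small as these or deviations shared between arrays. At most 0.48% of values were identical between any pair of arrays. Arrays with the same number deviated together from their group means (r = 0.52, 0.18 and 0.26 for numbers 1 to 3). In these deviations all 6 arrays correlated best with the array of their own number in the other population. Same-numbered arrays also share a label suffix, so differences by number are given and a replicate block was run as an alternative. The planned fit has no block and so ignores this pairing. The p-values, intervals and counts given are from the planned fit unless another setting is named. Alternatives were median centring, the replicate block, quantile normalization run again, a filter on the dimmest 25% of probe sets, eBayes with trend and robust settings, leaving out each array, a threshold of 0.10 and the brightest probe set of each gene; leaving out probe sets ending in _x_at was chosen after seeing the data. The members, gene lists and tests were chosen with earlier results of these data known. Named genes are all mucin probe sets, up to 3 genes of each related list by smallest p (brightest probe set of each gene) and the probe set with the smallest adjusted p; MUC17 is named without a value of its own, and 1 gene of the related lists is not reported here.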

Additional observations from a re-analysis of the deposited data

How the results depend on the processing

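The mucin result did not depend on the settings that were run. With median centring, the replicate block, repeated quantile normalization, trend and robust eBayes, a threshold of 0.10 or any 1 array left out, 0 of the 11 mucin probe sets passed in limma. None passed with dim probe sets left out either, but that filter removed MUC15 and MUC7 before the test. The smallest limma adjusted p over these alternatives was 0.55, for MUC5B with the replicate block. Among all probe sets, 2 passed with the replicate block, 2 at the threshold of 0.10 and 0 to 2 with 1 array left out, against 1 otherwise. With the block the unadjusted limma p was 0.023 for GALNT6, 0.048 for GALNT7, 0.0499 for ST6GALNAC4 and 0.049 for BGN. Without it these were 0.11, 0.073, 0.18 and 0.074, so counts of unadjusted p under 0.05 depend on the block. The share of all probe sets under 0.05 with the block was not counted. The limma adjusted p of these genes with the block was 0.52 to 0.62. The log2 change kept its sign for 5 mucin probe sets and turned for 6, all close to 0; the cause was not tested. With 1 array left out in turn, it ran from -0.012 to 0.085 for MUC6, from -0.0049 to 0.061 for MUC2, from -0.029 to 0.034 for MUC1 set 1, from -0.025 to 0.036 for MUC4, from -0.058 to 0.0097 for MUC16 and from -0.068 to 0.040 for MUC15, and MUC4 was at -0.036 with repeated quantile normalization. That of MUC5B ran from 0.11 to 0.17. Of 22 genes named from the related lists 0 passed with the block or with any 1 array left out. At the threshold of 0.10 in the main fit 1 passed, LGALS3 (limma adjusted p = 0.095). Its limma adjusted p was 0.066 with the block and between 0.17 and 0.41 with 1 array left out. For 14 of these 22 genes some single array, once left out, moved the change by over 1.5 times, and 4 turned sign: C1GALT1C1 (-0.015 to 0.10), GCNT1 (-0.0096 to 0.095), ERBB4 (-0.080 to 0.018) and LGALS4 (-0.11 to 0.030). The median change lay between 0.033 and 0.057 for secreted mucins and between -0.029 and 0.034 for membrane mucins with 1 array left out, and it was -0.022 for membrane mucins without probe sets ending in _x_at. With 3 arrays a group and no detection call, changes within the intervals given and expression below the probes' background cannot be seen.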
